A study of Mus musculus with 4 samples.

Results

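The 10 genes described here build and remodel the actin cytoskeleton: Pfn1, Actb, Actg1, Cfl1, Tmsb4x, Tmsb10, Lcp1, Coro1a, Arpc1b and Arpc2. They are 10 of the 55450 genes in the count tables and were matched by symbol. They were chosen by the difference between agonist and control within same-numbered wells, because Pfn1 differed strongly in only 1 pair of wells. Those differences are therefore given as description, with no test.

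The study cultured CD11c+ cells from the mesenteric lymph nodes (MLN) of wild-type C57BL/6J mice for 6 h, with water as the control or with 10 µM of an agonist of Ffar2, a receptor for short-chain fatty acids. The sample labels call the control untreated. CD11c is an integrin of dendritic cells, and it was enriched with magnetic beads. For each sample 2 nodes were pooled and the enriched cells were divided between a control and an agonist well, which gave 4 libraries: control 2, agonist 2, control 3 and agonist 3. The number names the pool of cells. Ages are not given in the labels, which also do not say whether a pool came from 1 mouse or several, so p-values measure the spread between these samples.

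Actin monomers assemble into filaments that push the cell membrane forward, shape the dendrites of dendritic cells and carry them through tissue. Profilin feeds monomers to growing filament ends, thymosins hold monomers in reserve, cofilin cuts old filaments, and the Arp2/3 complex starts new branches on existing filaments. Plastin bundles filaments and coronin regulates their branching and turnover.

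Reads assigned to genes numbered from 43238375 to 59902172 per library, and 18297 genes were kept for testing. The 10 genes together took from 4.34% to 5.70% of the gene reads of a library. Itgax, which encodes CD11c, was read at 95.5 to 189 CPM (reads per 1000000 gene reads, with libraries scaled for composition), and Ccr7, a receptor of migratory dendritic cells, at 7374 to 13384 CPM. The summed level of 10 T cell markers was 289 to 862 CPM and that of 10 B cell markers 375 to 823 CPM, so other lymph node cells were present. Both libraries numbered 2 held Xist reads (17776 and 21194) and both numbered 3 held none, whereas Ddx3y, a gene of the Y chromosome, was read only in those numbered 3 (18752 and 21461). The sex of the mice and the pool therefore cannot be told apart.

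The members include 2 pairs of related genes, whose coding sequences are shown to mark where they differ. Actb and Actg1, the cytoplasmic beta and gamma actins, were identical at 997 of 1125 coding bases (88.6%). Their first 90 coding bases follow, 5′ to 3′ on the coding strand, with the 16 bases that differ between them in capitals.
Actb: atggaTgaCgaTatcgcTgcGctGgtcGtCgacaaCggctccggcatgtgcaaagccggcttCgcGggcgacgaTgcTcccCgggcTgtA
Actg1: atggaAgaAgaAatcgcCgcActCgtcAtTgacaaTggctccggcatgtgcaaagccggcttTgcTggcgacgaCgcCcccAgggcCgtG
Tmsb4x and Tmsb10, the thymosins beta 4 and beta 10, were identical at 92 of 132 coding bases (69.7%). The whole coding sequences without the stop codon follow in the same way, with the 40 differing bases in capitals.
Tmsb4x: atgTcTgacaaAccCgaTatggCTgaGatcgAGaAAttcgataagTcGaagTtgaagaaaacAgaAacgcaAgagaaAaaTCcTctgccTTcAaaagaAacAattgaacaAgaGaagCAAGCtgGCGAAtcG
Tmsb10: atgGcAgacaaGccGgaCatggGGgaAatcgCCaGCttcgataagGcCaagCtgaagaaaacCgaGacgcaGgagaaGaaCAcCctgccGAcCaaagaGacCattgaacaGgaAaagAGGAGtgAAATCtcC
These sequences are those of the GENCODE M21 transcripts on GRCm38, in which all 4 genes lie on the minus strand. The start codons begin at position 142905686 of chromosome 5 (Actb), 120348091 of chromosome 11 (Actg1), 167208036 of chromosome X (Tmsb4x) and 72958012 of chromosome 6 (Tmsb10).

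Promoter sequences of 9 members were found in the RefSeq table (GRCm38.p6), and Actb had no entry. The sequences before the RefSeq starts of Pfn1 and Arpc2 are shown because these were the members that differed most between wells, and that of Actg1 because it held a CArG box, the element bound by serum response factor (SRF), whose cofactors sense free actin monomers. They are given 5′ to 3′ on the strand of the gene. Capitals mark the CArG box and each GGGCGG or its complement CCGCCC. The Pfn1 stretch lies at chr11:70654651-70654800 on the minus strand, the Arpc2 stretch at chr1:74236367-74236496 on the plus strand and the Actg1 stretch at chr11:120348543-120348645 on the minus strand. Bases of annotated GENCODE exons were cut off, so the stretches of Arpc2 (130 bases) and Actg1 (103 bases) stop short of the RefSeq start. GENCODE M21 begins Arpc2 further upstream, at 74236084, so that stretch lies within the GENCODE gene but outside its annotated exons.
Pfn1: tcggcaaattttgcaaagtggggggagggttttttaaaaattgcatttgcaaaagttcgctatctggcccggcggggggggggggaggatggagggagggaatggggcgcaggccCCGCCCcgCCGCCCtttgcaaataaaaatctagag
Arpc2: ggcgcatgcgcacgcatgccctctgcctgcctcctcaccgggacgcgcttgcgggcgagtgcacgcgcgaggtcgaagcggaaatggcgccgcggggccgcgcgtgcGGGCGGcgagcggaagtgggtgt
Actg1: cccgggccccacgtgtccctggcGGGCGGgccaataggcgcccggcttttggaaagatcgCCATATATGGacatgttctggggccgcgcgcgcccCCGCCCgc
The 9 members had 13 windows from 250 bases before to 50 bases after a gene start. A CArG box was found in 1 of these 13 windows, for 1 of the 9 members, against 1.63% of the 32851 windows of all genes. The Actg1 box began 90 bases before the RefSeq gene start, which lies beyond the end of the stretch shown. GGGCGG on either strand was found in 12 of the 13 windows, covering 9 of 9 members, and in 35.7% of all windows. TATAAA on either strand was found in 0 of the 13 windows and in 13.6% of all windows. GAGGAA, searched in the same way, was found in 1 of the 13 (Arpc1b) and in 28.3% of all windows. Pfn1 and Arpc2 shared none of these matches other than GGGCGG. In the stretches shown, the marked matches do not overlap.

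Pfn1 encodes profilin 1, which binds actin monomers and delivers them to filament ends. The gene (ENSMUSG00000018293.4) lies on the minus strand of chromosome 11, from 70651850 to 70654644, and its principal transcript has 3 exons. It had 2450 reads in control 2, 13928 in agonist 2, 7153 in control 3 and 8101 in agonist 3. Scaled to library size these were 56.3, 268, 137 and 143 CPM. Both libraries numbered 3 lay together, while control 2 was the lowest and agonist 2 the highest of the 4. Pfn1 was 4.76-fold higher in the agonist than in the control well of number 2 (log2 difference 2.25). In the wells numbered 3 the ratio was 1.04, a log2 difference of 0.06 that was -0.01 when libraries were scaled by total counts alone. Over all 4 libraries Pfn1 averaged 96.6 ± 57.0 CPM with water and 205 ± 88.4 CPM with the agonist (SD, n = 2 each), and the log2 estimate was 1.09 (SE 0.51). That estimate was 0.58 without control 2, 0.60 without agonist 2, 1.46 without agonist 3 and 1.95 without control 3.

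**Figure D1:**
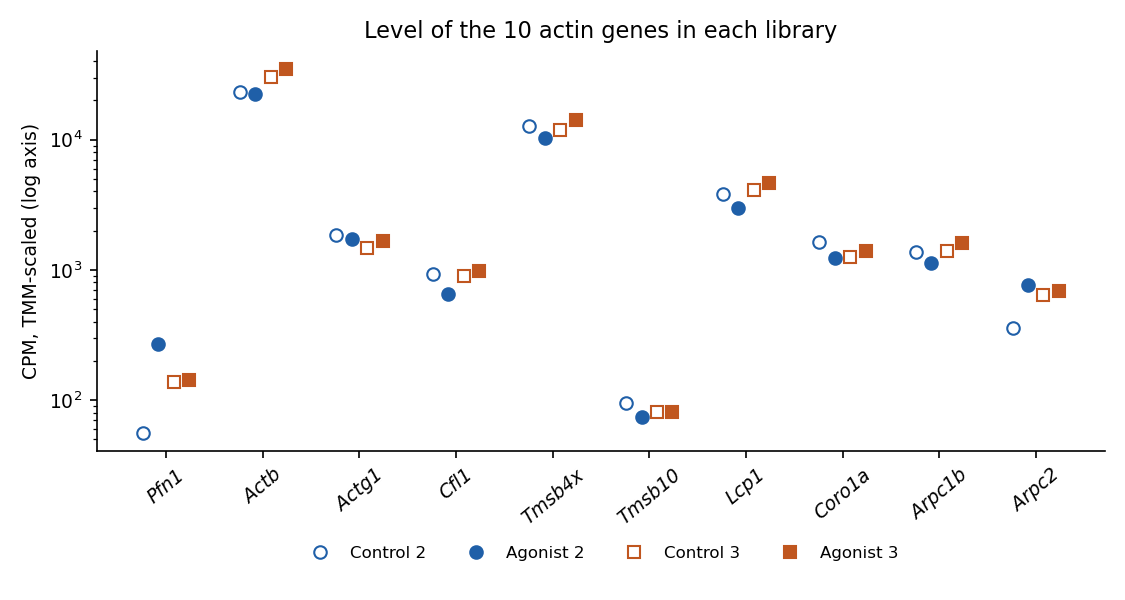
Level of each of the 10 genes in the 4 libraries, in CPM on a log axis. Open symbols are control wells, filled symbols agonist wells, circles number 2 and squares number 3. Pfn1 ran from 56.3 CPM in control 2 to 268 CPM in agonist 2, with both squares between them.

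Arpc2, a core subunit of the Arp2/3 complex that contacts the mother filament (ENSMUSG00000006304.14, chromosome 1, 74236084 to 74268209, plus strand), was ordered like Pfn1. Its 15519, 39819, 33650 and 39235 reads in control 2, agonist 2, control 3 and agonist 3 gave 356, 766, 644 and 692 CPM. Here control 2 stood alone below the other libraries. Arpc2 was 2.15-fold higher in the agonist well of number 2 (log2 difference 1.10) and 1.07-fold higher in that of number 3 (0.10). Its log2 estimate over all libraries was 0.54 (SE 0.34), with 0.18 left without control 2 and 1.11 reached without control 3. The groups had 500.3 ± 203 CPM (control) and 729 ± 52.4 CPM (agonist; SD, n = 2).

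Control 2 was the lowest and agonist 2 the highest library for Pfn1 and Arpc2, 2 of the 10 members. The same arrangement was seen for 280 of the 2907 tested genes with a mean log2 CPM of at least 6, or 9.63%. All 10 members reach that level. In the wells numbered 2, the agonist lay above the control by more than 1 log2 for the same 2 members and for 153 of these 2907 genes (5.26%), with Pfn1 sixth in order. In the wells numbered 3, 0 members and 0 of the 2907 genes (0%) were higher with the agonist by that much. The range of the middle 90% of these genes was -0.52 to 1.04 in the wells numbered 2 and -0.23 to 0.29 in those numbered 3.

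The genes most like Pfn1 were Atp5b, Sqstm1, Mtpn, Ipo7 and Pdia3, taken as the 5 smallest root mean square differences in centred log2 CPM over the 4 libraries, out of 2845 candidate genes. Atp5b encodes the beta subunit of mitochondrial ATP synthase. It had 227, 996, 523 and 535 CPM in control 2, agonist 2, control 3 and agonist 3, and it differed from Pfn1 by a root mean square of 0.05. Sqstm1, the autophagy receptor p62, had 489, 2219, 1238 and 1347 CPM in that order. Mtpn encodes myotrophin, which binds the capping protein of actin filaments, and had 79.4, 337, 195 and 181 CPM. Ipo7 is a nuclear import receptor and Pdia3 a protein disulfide isomerase of the endoplasmic reticulum, and their log2 differences in the wells numbered 2 were 2.08 and 2.22. The likeness of Arpc2 to Pfn1 was looser, at 0.41, and 110 of the candidates were closer. The other 8 members lay at 0.83 to 0.98.

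**Figure D2:**
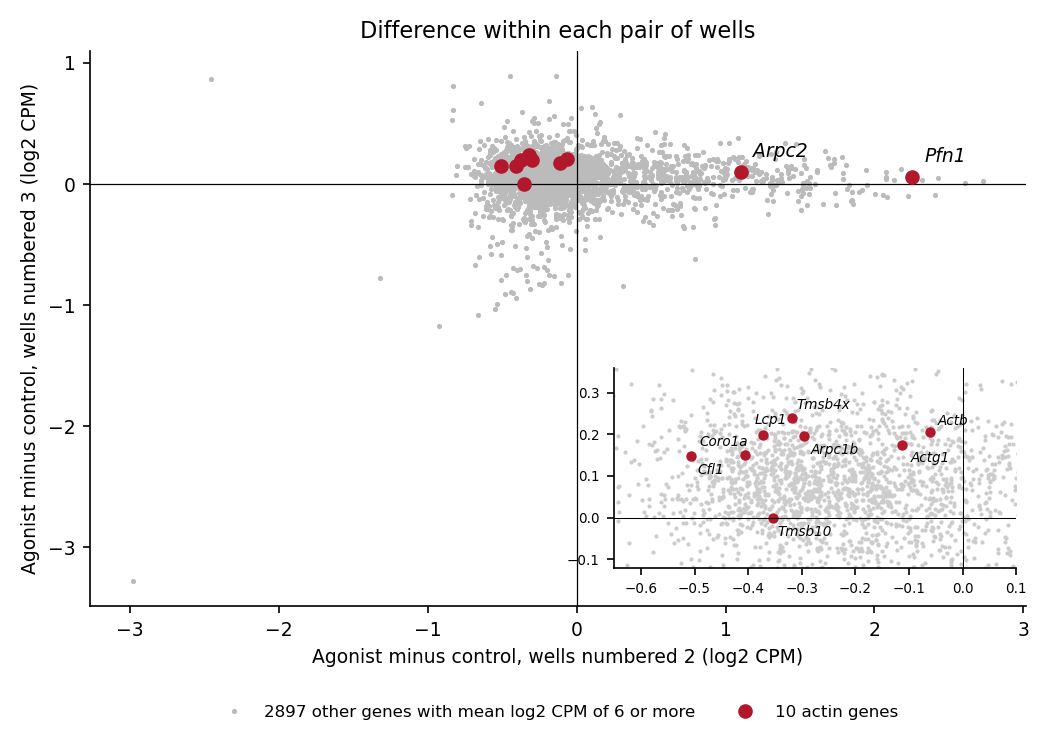
Log2 CPM of the agonist well minus that of the control well, for number 2 on the x axis and number 3 on the y axis. Red points are the 10 genes, grey points the 2897 other genes with a mean log2 CPM of at least 6, and the inset enlarges the 8 members near 0. Pfn1 and Arpc2 lie far to the right at 2.25 and 1.10 and at 0.06 and 0.10 on the y axis.

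The other 8 members varied less. Their highest library exceeded their lowest by 1.26-fold to 1.58-fold, against 4.76-fold for Pfn1 and 2.15-fold for Arpc2. All 8 were lower in the agonist well of number 2, by log2 differences of -0.51 to -0.06, although for Actb the difference was -0.0004 under scaling by total counts. Of the 2907 genes, 71% were also lower in that well. In the wells numbered 3, 9 members were higher with the agonist, as were 70.2% of the 2907 genes. Both held for 7 members and 50.5% of those genes. The members' median differences were -0.31 (number 2) and 0.16 (number 3), beside -0.18 and 0.07 for the 2907 genes and -0.09 and -0.005 for all 18297.

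Actb, cytoplasmic beta actin (ENSMUSG00000029580.14, chromosome 5, 142903115 to 142906754, minus strand), was the most read member. It had 1012803, 1159383, 1580915 and 1980427 reads in control 2, agonist 2, control 3 and agonist 3, or 23263, 22298, 30265 and 34916 CPM. The libraries numbered 3 lay above those numbered 2 without overlap, and the wells of 1 pair were close together. The control wells had 26764 ± 4951 CPM and the agonist wells 28607 ± 8922 CPM (SD, n = 2), with a log2 estimate of 0.10 (SE 0.29).

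Actg1, cytoplasmic gamma actin (ENSMUSG00000062825.15, chromosome 11, 120345690 to 120348542, minus strand), had 1849, 1711, 1467 and 1655 CPM in the same order. It was higher in the libraries numbered 2, the opposite of Actb. Actg1 has 6 annotated processed pseudogenes that match its transcript at 95% identity or more. They drew 1963 to 2878 reads per library beside 76624 to 93871 for Actg1, and some of its reads can be placed there. Reads without a unique alignment, 6.54% to 6.98% of a library, were counted for no gene. How many of those came from Actg1 is not known. The ratio of Actb to Actg1 reads within a library, which needs no scaling, was 12.6 in control 2, 13.0 in agonist 2, 20.6 in control 3 and 21.1 in agonist 3. The balance of the 2 actins thus followed the pool, 1.63-fold higher in number 3, and differed by at most 1.04-fold between the wells of a pair. The ratio was described after its values were seen and has no test of its own.

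The thymosins bind actin monomers and keep them from assembling. Tmsb4x (ENSMUSG00000049775.16, chromosome X, 167207093 to 167209315, minus strand) had 12756, 10237, 11897 and 14045 CPM in control 2, agonist 2, control 3 and agonist 3. Agonist 2 was the lowest library and agonist 3 the highest, so the agonist wells spanned both control wells. Tmsb10 (ENSMUSG00000079523.8, chromosome 6, 72957347 to 72958748, minus strand) had 95.2, 74.5, 80.7 and 80.7 CPM. Its wells numbered 3 were alike and control 2 was highest. Tmsb4x had 134, 137, 147 and 174 times as many reads as Tmsb10 in the same order. Tmsb10 has 5 annotated pseudogenes that match its transcript at 95% identity or more, and Tmsb4x has 0. Those 5 drew 16 to 22 reads per library. How many reads without a unique alignment came from Tmsb10 is not known, so the ratio may be too high.

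**Figure D3:**
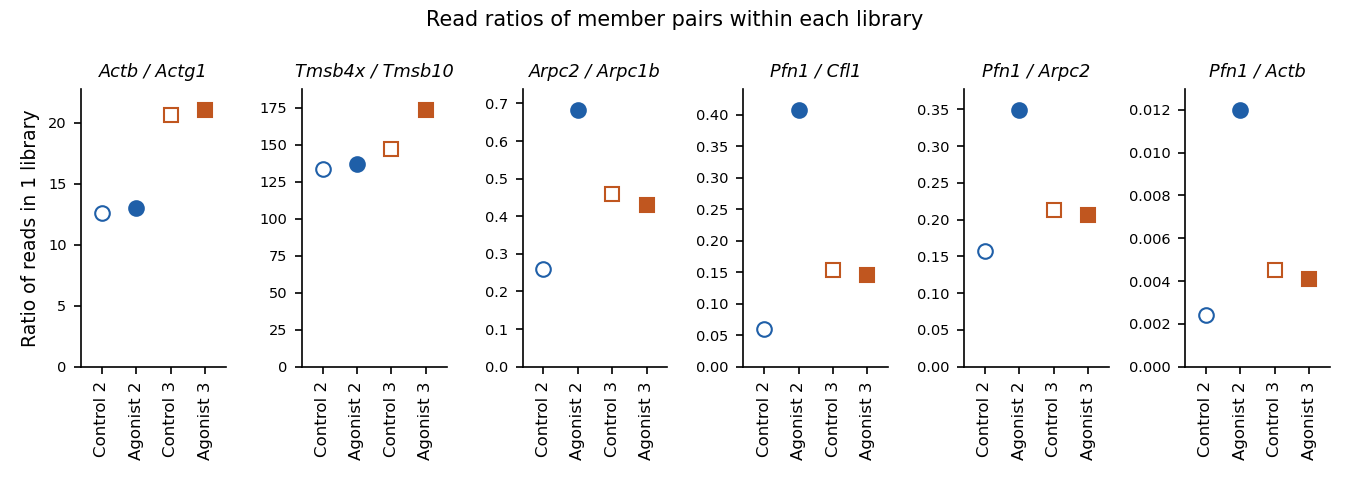
Ratio of the reads of 2 members within each library, for 6 pairs of members, each on its own linear axis from 0. Actb over Actg1 separates number 2 (12.6 and 13.0) from number 3 (20.6 and 21.1), whereas ratios with Pfn1 or Arpc2 above the line set control 2 lowest and agonist 2 highest.

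Cfl1, cofilin 1, severs and disassembles filaments (ENSMUSG00000056201.8, chromosome 19, 5490455 to 5495201, plus strand). It had 933 CPM in control 2, 656 in agonist 2, 889 in control 3 and 986 in agonist 3, with agonist 2 below the other 3. Of the 10 members it had the lowest difference in the wells numbered 2 (-0.51), where Pfn1 had the highest. The ratio of Pfn1 to Cfl1 reads was therefore 0.060 in control 2 and 0.408 in agonist 2, a 6.76-fold difference, but 0.154 and 0.145 in control 3 and agonist 3. Snx32 on the opposite strand shares 468 exonic bases with Cfl1 (16.5% of its exons), and without strand information reads there cannot be told apart.

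Lcp1 encodes L-plastin, the filament bundler of leukocytes (ENSMUSG00000021998.16, chromosome 14, 75131101 to 75230842, plus strand). It had 3835, 2963, 4078 and 4680 CPM in control 2, agonist 2, control 3 and agonist 3. Both libraries numbered 3 exceeded both numbered 2. Coro1a, the coronin of leukocytes (ENSMUSG00000030707.15, chromosome 7, 126699773 to 126707787, minus strand), had 1633, 1233, 1261 and 1401 CPM, with control 2 above the rest.

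Arpc1b, the Arp2/3 subunit abundant in blood cells (ENSMUSG00000029622.16, chromosome 5, 145114215 to 145130705, plus strand), had 1375, 1120, 1406 and 1611 CPM. Its order over the libraries was that of Actb and Lcp1 and not that of its partner Arpc2. The ratio of Arpc2 to Arpc1b reads was 0.259 in control 2, 0.684 in agonist 2, 0.458 in control 3 and 0.429 in agonist 3. Within number 2 the ratio of these subunits of 1 complex was 2.64-fold higher in the agonist well, and within number 3 it was 0.937-fold. Arpc1b shares 931 exonic bases (18.2%) with Pdap1 on the opposite strand.

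The log2 estimates of agonist over control for these 8 members ran from -0.18 (Tmsb10) to 0.10 (Actb), with SEs of 0.25 to 0.29. Agonist and control libraries did not overlap for 3 of the 10 members: Pfn1 and Arpc2, higher with the agonist, and Tmsb10, whose nearest wells were both at 80.7 CPM. Of all 18297 tested genes, 25% did not overlap. The rule for the members used this contrast, so nothing is read from that count. With the pool number as a block the estimates were 1.15 (SE 0.47) for Pfn1 and 0.60 (SE 0.29) for Arpc2.

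Levels were compared between genes per kilobase of annotated exon. Actg1, Tmsb10, Cfl1, Arpc1b and Arpc2 have annotated pseudogene copies, and reads without a unique alignment were counted for no gene. The levels of these genes may thus be too low by an unknown amount. Actb led with 10334 ± 2235 CPM per kilobase (SD, n = 4 libraries), followed by Tmsb4x with 8923 ± 1165, which did not differ from it beyond that spread. Then came Actg1 with 628 ± 59.6, Coro1a with 497 ± 65.7, Lcp1 with 409 ± 74.9, Cfl1 with 304 ± 51.1, Arpc2 with 302 ± 88.1 and Arpc1b with 269 ± 39.4. From Coro1a down to Arpc1b, each gene lay within the summed SDs of its neighbour in this order. Those SDs run over libraries of both pools. Within every single library Coro1a lay above Lcp1, Lcp1 above Cfl1 and Cfl1 above Arpc1b, while the place of Arpc2 varied. The least abundant were Tmsb10 with 64.9 ± 6.88 and Pfn1 with 62.8 ± 36.3 CPM per kilobase, again within their spread. When the length of the principal transcript was used instead, a choice made after the data were seen, Tmsb4x stood first (15930 on average) and Actb second (14420), Lcp1 moved up to rank 3 and Pfn1 (175) stood above Tmsb10 (120).

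Differences between the libraries numbered 3 and 2 were not used to choose the members and were tested. The test asks how far the levels depend on the pool of cells. Its error, though, comes in part from how the agonist difference varied between the 2 pairs of wells. Pfn1 was chosen by that variation, so nothing is read from its failure to pass. By edgeR's quasi-likelihood test with Benjamini-Hochberg adjustment over all genes, 72 of 18297 genes (0.394%) passed, and 0 of the 10 members did. Each arm is 1 pool, so these p-values measure how its wells varied and not how pools vary. Actb had 22781 ± 682 CPM in number 2 and 32590 ± 3289 CPM in number 3 (SD, n = 2), a log2 difference of 0.51 (SE 0.25, 95% interval -0.05 to 1.07, edgeR adjusted p = 0.404). Lcp1 had 3399 ± 617 and 4379 ± 425 CPM (log2 difference 0.37, interval -0.20 to 0.95, edgeR adjusted p = 0.571). Actg1 had 1780 ± 97.8 and 1561 ± 133 CPM, a log2 difference of -0.19 with an interval of -0.73 to 0.35. Libraries of the 2 numbers did not overlap for 4 of the 10 members (Actb, Actg1, Lcp1 and Arpc1b), beside 49.2% of all tested genes.

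The widest interval among the members was that of Pfn1, -0.86 to 1.23 around 0.19. This width follows in part from the gap between the wells numbered 2 for which Pfn1 was chosen, so nothing is read from it. Without control 2, Pfn1 was lower in number 3 by a log2 difference of -0.93, and without agonist 2 it was higher by 1.33. Arpc2 stood at -0.19 and 0.93 in the same fits. These signs restate the gap between the wells numbered 2 for which Pfn1 was chosen, so they are a description with no test. For Pfn1 the difference was also -0.23 without control 3, -0.24 without agonist 3 and -0.21 without the group term, so its sign was not stable. In the fits without 1 library the group term was dropped as well, and 1 library stood alone in its arm, whose spread is taken to be that of the other arm.

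**Figure D4:**
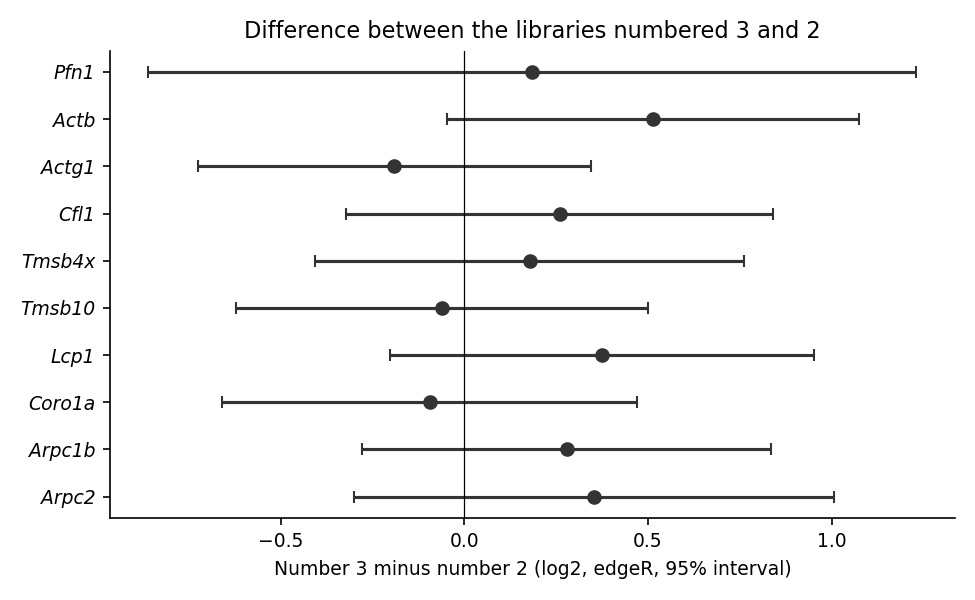
Log2 difference between the libraries numbered 3 and those numbered 2 for each member, as fitted with edgeR, with its 95% interval. All 10 intervals include 0, and that of Actb, from -0.05 to 1.07, reaches least below 0. The width for Pfn1 follows in part from the gap between wells that it was chosen by.

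Marker levels moved with some of these values. The order of Actb, Lcp1 and Arpc1b over the libraries (agonist 2, control 2, control 3, agonist 3 from low to high) was also that of the summed level of 5 migratory dendritic cell markers, which was 10322, 13116, 15246 and 16946 CPM, with Ccr7 the most read. It was likewise that of 21.2% of the 2907 genes. The sum of 7 markers of cDC1, the cross-presenting dendritic cells, had this order too, from 185 to 310.2 CPM. In the wells numbered 2 the migratory sum differed by -0.35 log2, whereas the median difference of its 5 genes was 0.13. The sums of 6 markers of cDC2, another dendritic cell type, and of 6 shared cDC markers did not have this order. Both were highest in control 2, with the cDC2 sum lowest in agonist 3 and the shared sum lowest in control 3. T cell, B cell and pDC marker sums were all highest in control 2 and lowest in agonist 3. Monocyte and macrophage markers summed to 5332 and 4828 CPM in control 2 and agonist 2 and to 2941 and 3294 CPM in control 3 and agonist 3. Fewer cells of a type and less RNA per cell cannot be told apart in such bulk samples, and the part of cell makeup in the members' values was not tested. Control 2 lowest and agonist 2 highest, as for Pfn1 and Arpc2, was seen for 0 of 12 marker sums. Each sum follows its most read genes, so single markers can differ from it. Of the 6 shared cDC markers, 1 had control 2 lowest and agonist 2 highest. H2-Ab1 of that list was higher with the agonist by more than 1 log2 in the wells numbered 2. Whether cell makeup bears on Pfn1 and Arpc2 was not tested. Of the neutrophil markers Ly6g had no read in any library, and the list summed to 2.81 to 5.85 CPM.

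Beyond the members, 10 lists of other actin genes held 123 genes, of which 120 were tested. By edgeR's test none of the 120 passed in either comparison, where 0% (agonist) and 0.394% (number) of all genes did. Over all genes in the agonist comparison, adjusted p-values gave 0 calls in limma-voom and 7 in DESeq2. At an unadjusted p under 0.05 there were 289 genes in edgeR, 230 in limma-voom and 392 in DESeq2. With the pool number as a block edgeR called 1 gene (0.00547%), which is in none of the lists. Of the 71 list genes at a mean log2 CPM of at least 6, 3 (4.23%) were higher with the agonist by more than 1 log2 in the wells numbered 2, close to the 5.26% of all such genes. Those 3 were picked out after their values were seen: Scin, which severs and caps filaments (1.95), Tpm4, a tropomyosin that coats filaments (1.41), and Coro1c, a coronin (1.20). In the wells numbered 3 they stood at -0.01, 0.15 and 0.17.

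The other subunits of the Arp2/3 complex differed among themselves. Arpc5 had 1095, 1153, 1767 and 1950 CPM in control 2, agonist 2, control 3 and agonist 3. Both libraries numbered 3 thus lay above both numbered 2. Libraries of the 2 numbers did not overlap, in either direction, for 49.2% of all tested genes. Actr3, an actin-related subunit, had 957, 1487, 1592 and 1761 CPM, so that control 2 stood low as it did for Arpc2. Of the 9 subunits and regulators of this list, 8 were at the higher level and 5 of them were lower in agonist 2 than in control 2. Their median difference in the wells numbered 2 was -0.27.

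Among monomer-binding genes and the cofilin pathway, Wdr1, a cofactor of cofilin, had 2140, 1888, 3155 and 3634 CPM in the same order and Dstn, a relative of cofilin, 355, 317, 451 and 463 CPM. Both were higher in the libraries numbered 3, with log2 differences of 0.75 and 0.45 that did not pass the test (edgeR adjusted p = 0.209 and 0.440). The list's median difference between the numbers was 0.37 over 17 genes, beside -0.006 for all tested genes. For the 2907 genes at a mean log2 CPM of at least 6, a level that 9 of the 17 reach, the median was 0.09.

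The remaining lists described were represented by their most read genes. In the wells numbered 2, Capza2 and Capzb, subunits of capping protein, had log2 differences of -0.09 and -0.13, and Cyfip1 and Nckap1l, parts of the WAVE complex that activates Arp2/3, -0.31 and -0.18. Lsp1 and Iqgap1, which link and crosslink filaments, had -0.46 and -0.27, and the motors Myo1g and Myh9 -0.31 and -0.09. Coro1b had -0.24. The formins Inf2 and Daam1, which elongate unbranched filaments, were read at only 34.9 to 36.9 and 21.3 to 48.1 CPM. Mrtfa, the actin-sensing cofactor of SRF, had 379, 544, 494 and 548 CPM in control 2, agonist 2, control 3 and agonist 3, a difference of 0.52 in the wells numbered 2, and Mrtfb had 0.02. Srf itself was read at 2.08 to 3.39 CPM.

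Widely expressed genes gave a scale for these values. B2m, Eef1a1 and Ubb had differences of -0.12, -0.44 and -0.44 in the wells numbered 2, and Tuba1b and Tbp -0.29 and 0.02. The median of the 20 genes was -0.29, near the -0.31 of the 10 actin genes. Of the 19 at a mean log2 CPM of at least 6, 2 (10.5%) were higher with the agonist by more than 1 log2 in those wells. They were Gusb and Vim, and the share among all such genes was 5.26%. Gusb, a lysosomal enzyme, was the only gene of this list to pass between the numbers, higher by 2.03 in number 3 (edgeR adjusted p = 0.0280). Vim, which encodes the intermediate filament protein vimentin and was picked out after its values were seen, had 103, 233, 181 and 189 CPM in control 2, agonist 2, control 3 and agonist 3, the order of Pfn1 and Arpc2.

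**Figure D5:**
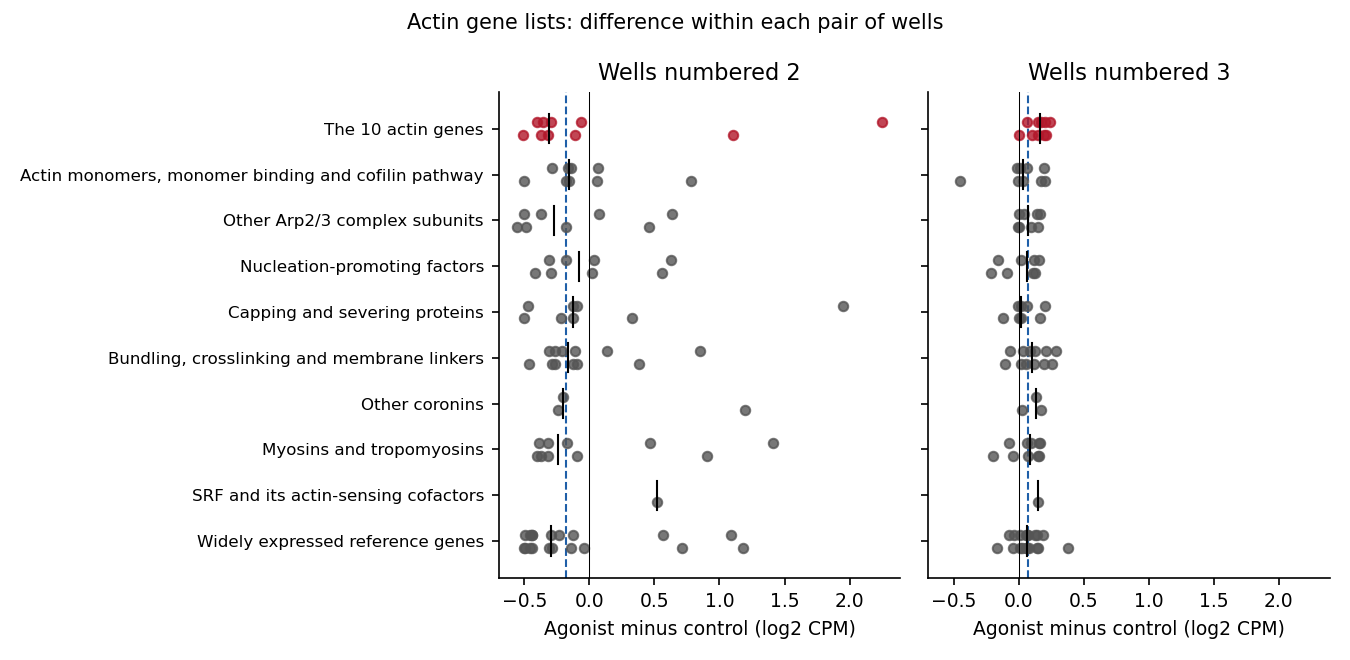
Agonist minus control in log2 CPM for the 10 members and for the genes of the actin lists shown and of the reference list with a mean log2 CPM of at least 6, in the wells numbered 2 (left) and 3 (right). Short black bars are list medians and the dashed line is the median of all 2907 such genes, -0.18 on the left and 0.07 on the right. Single genes of several lists lie far to the right in the wells numbered 2 and none do in those numbered 3.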

How the data were processed

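Gene read counts of 4 libraries, prepared by SMART-seq v4 from low RNA input, were deposited by the authors as whole numbers with no normalization. STAR 2.7, HTSeq 0.11.1 and GRCm38 (mm10) were used, per the submitters' processing notes, while the strand setting and annotation release are not given in the sources used here. All 55450 rows matched GENCODE M21 by identifier and symbol, which supplied coordinates. Rows naming no gene were left out (no feature 15.96% to 19.99% of reads).

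Genes passing edgeR's default filter (minimum count 10) were kept, 18297 in all, and libraries were scaled by TMM. The agonist and control were compared by edgeR 4.0.16's quasi-likelihood test with group alone, and numbers 3 and 2 with group as a term, in R 4.3.3, adjusted by Benjamini-Hochberg at 0.05. Log2 CPM of single libraries used a prior count of 2. limma 3.58.1, DESeq2 1.42.0, other scalings and filters, and leaving out each library were tried. Fits were tested on simulated data. Copies were searched with BLAST 2.17.0 (95% identity, 100 bases, annotated pseudogenes).

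The members and lists were chosen with earlier results of these data known. The genes of 1 list are counted with the others but not reported here singly. From each list, genes past the threshold or else the 2 with the highest mean CPM were named, from the reference genes the 3 highest and 2 lowest, and the 5 genes most like Pfn1 that are not members, predicted, mitochondrial or antigen receptor segments. The protocol states that cells of a sample were divided between wells, so the numbers pair the libraries. Deviations from the group means correlated between same-numbered libraries (r = 0.288 over 18297 genes).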

Additional observations from a re-analysis of the deposited data

Results flagged for a closer look

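For 7 of the 10 members the agonist well lay below the control well in number 2 and above it in number 3. The log2 differences were -0.0611 and 0.21 for Actb, -0.11 and 0.17 for Actg1, -0.51 and 0.15 for Cfl1, -0.32 and 0.24 for Tmsb4x, -0.37 and 0.20 for Lcp1, -0.41 and 0.15 for Coro1a, and -0.30 and 0.20 for Arpc1b. These opposite directions were picked out because the single difference in number 2 was below 0 and the single difference in number 3 above 0. For Actb the difference in number 2 was -0.0004 under scaling by total counts. With 1 well per condition in each number the difference was not tested. Of the 2907 tested genes at a mean log2 CPM of at least 6, 50.5% showed the same directions.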

How the results depend on the processing

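In the agonist comparison, where edgeR called 0 genes, the fit with the pool as a replicate block called 1 (Igha, adjusted p = 0.0140), DESeq2 7 and edgeR without a filter 9. Leaving out 1 library gave 0 to 2. The block changed no call among the members or lists. Between the numbers, where edgeR called 72, DESeq2 called 706, limma-voom 275, edgeR with total counts 5, without a filter 600, with a stricter filter 8, and without the group term 5. Leaving out 1 library gave 1 (control 3) to 1575 (agonist 2), with 841 without control 2 and 10 without agonist 3. The count of members called was 0 to 2 when 1 library was left out, and 0 in all other fits run. Those called were Pfn1 without control 2, and Pfn1 and Arpc2 without agonist 2, which follows from the gap the members were chosen by. Pfn1's difference between the numbers was -0.21 without the group term, and with 1 library left out it ran from -0.93 to 1.33, at -0.93, -0.23 and -0.24 without control 2, control 3 and agonist 3. Leaving out control 2 also reversed Tmsb10, Coro1a and Arpc2, whose ranges were -0.22 to 0.12, -0.28 to 0.12 and -0.19 to 0.93. The cause was not tested.

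The members had at least 2450 reads per library. The limit is 2 pools, each with 1 well per condition. Other scalings moved the members' well differences by -0.07 to 0.06 log2, and Pfn1 and Arpc2 had the highest differences in the wells numbered 2 under each.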
